A study of Mus musculus with 8 samples.

Results

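Hemoglobin and erythroid genes were followed in cultures of mouse T cells. The 9 genes are the hemoglobin genes Hba-a1, Hba-a2, Hbb-bs and Hbb-bt, the heme synthesis gene Alas2, the membrane gene Slc4a1, the transcription factor genes Klf1 and Gata1, and the chaperone gene Ahsp. They were taken by symbol out of 28239 symbols, and 8 of them had a row. Ahsp was not analysed here. The genes were chosen from earlier results of the same comparison, in which the hemoglobin genes stood out, so their difference between the groups is a description and carries no test. Naïve CD4+ T cells came from the spleens of WT mice and of Alox15-/- mice, which are described as deficient in the lipid-oxidizing enzyme 12/15-lipoxygenase, with 4 mice in each group. Both groups were on the C57BL/6 background, of either sex and 10 to 12 weeks old, but the WT mice came from Charles River and the mutants from The Jackson Laboratory, so genotype and supplier cannot be told apart. The cells of both were purified by removing other cells with magnetic beads, and were then kept for 2 days under conditions that make regulatory T cells (Tregs). These were IL-2 at 100 U/ml, TGF-β at 5 ng/ml and 1 CD3/CD28 bead per cell. RNA was read by MACE-seq, which counts transcripts near their 3′ end, so a count is a read assigned to a gene symbol.

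A red cell precursor turns most of its transcription over to a small set of genes. Hemoglobin is built from alpha chains and beta chains around heme, and each chain is made from a pair of adult genes in the mouse. Alas2 makes the first and limiting step of heme synthesis in red cell precursors, Slc4a1 is the anion exchanger (band 3) of the red cell membrane, Klf1 and Gata1 switch the program on, and Ahsp protects free alpha chains. Nuclei and most transcripts are lost on the way to the mature cell, and the reticulocyte that leaves the marrow still carries much globin messenger RNA. Gata1 is also used by mast cells, eosinophils and megakaryocytes. The 15-lipoxygenase studied here was long known from reticulocytes, where it takes part in the breakdown of mitochondria.

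Libraries held from 3723151 to 9538962 counts in all. Markers of T cells were present in all libraries, their summed level being 1670 to 1950 CPM (counts scaled to library size by the TMM method) in the libraries labelled Alox15-/- and 1840 to 2030 CPM in those labelled WT. For 4 Treg markers including Foxp3 the sums were 1360 to 1520 CPM and 1370 to 1620 CPM. The targeted gene, Alox15, went against its label, with 292, 255, 337 and 454 counts in the libraries labelled Alox15-/- and 12, 16, 77 and 43 in those labelled WT. In CPM the mean was 67.2 ± 3.19 (SD, n = 4) for Alox15-/- and 5.31 ± 3.61 (SD, n = 4) for WT. Its log2 fold change was 3.65 (SE 0.299, edgeR quasi-likelihood test, Benjamini-Hochberg adjusted p = 1.08e-05). The deleted part of the gene is not given in the sources used here, and reads outside it would not check the labels. Exchanged labels and reads from the mutant gene cannot be told apart with these counts, and every direction given here would turn if the labels were exchanged. Foxp3, the factor that defines Tregs, was at 71.7 to 114 CPM under the Alox15-/- label and 93.4 to 195 CPM under the WT label, which overlapped (log2 fold change -0.42, SE 0.203, edgeR adjusted p = 0.655). Directions below follow the labels and are positive where the libraries labelled Alox15-/- were higher. The RNA is that of all cells in a culture, so more cells of a type and more RNA per cell cannot be told apart.

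The alpha genes lie on the plus strand of chromosome 11 of GRCm38, Hba-a1 (ENSMUSG00000069919.7) from 32283511 to 32284465 and Hba-a2 (ENSMUSG00000069917.7) from 32296489 to 32297298. They are 38.1 Mb and 38.0 Mb away from Alox15 on the same chromosome. The beta genes lie on the minus strand of chromosome 7, Hbb-bs (ENSMUSG00000052305.6) from 103826534 to 103828096 and Hbb-bt (ENSMUSG00000073940.3) from 103812524 to 103813996. Alas2 (ENSMUSG00000025270.13) and Gata1 (ENSMUSG00000031162.14) are on chromosome X, Klf1 (ENSMUSG00000054191.8) is on chromosome 8 and Slc4a1 (ENSMUSG00000006574.15) is on the same chromosome as Alox15.

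Promoters are shown for some of the genes whose level moved together between the groups, since the alpha and beta genes sit on different chromosomes. Hba-a2, whose window matches that of Hba-a1 in the bases they share, is left out, and Slc4a1 had no promoter to show. Each promoter shown is 300 bases around the start of the RefSeq gene on GRCm38.p6, written 5′ to 3′ along the strand of the gene. The windows are chr11:32283422-32283721 (plus strand) for Hba-a1, chr7:103827879-103828178 (minus) for Hbb-bs, chr7:103813874-103814173 (minus) for Hbb-bt and chrX:150547167-150547466 (plus) for Alas2. Capitals mark matches on either strand to the motifs CACCC (read as GGGTG on the other strand), CCAAT (read as ATTGG there), GATAA (read as TTATC there) and to the motif TATAA (read as TTATA there).
Hba-a1: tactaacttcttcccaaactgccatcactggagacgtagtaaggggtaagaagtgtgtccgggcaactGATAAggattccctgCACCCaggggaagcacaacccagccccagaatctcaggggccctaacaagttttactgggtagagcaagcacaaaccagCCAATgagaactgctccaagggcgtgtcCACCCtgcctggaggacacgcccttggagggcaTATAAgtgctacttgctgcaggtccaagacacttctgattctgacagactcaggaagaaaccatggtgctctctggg
Hbb-bs: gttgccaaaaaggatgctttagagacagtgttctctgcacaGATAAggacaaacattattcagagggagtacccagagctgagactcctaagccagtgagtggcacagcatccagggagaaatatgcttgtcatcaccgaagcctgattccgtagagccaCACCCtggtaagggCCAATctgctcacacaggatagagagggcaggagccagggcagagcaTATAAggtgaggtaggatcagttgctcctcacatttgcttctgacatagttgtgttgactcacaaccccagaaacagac
Hbb-bt: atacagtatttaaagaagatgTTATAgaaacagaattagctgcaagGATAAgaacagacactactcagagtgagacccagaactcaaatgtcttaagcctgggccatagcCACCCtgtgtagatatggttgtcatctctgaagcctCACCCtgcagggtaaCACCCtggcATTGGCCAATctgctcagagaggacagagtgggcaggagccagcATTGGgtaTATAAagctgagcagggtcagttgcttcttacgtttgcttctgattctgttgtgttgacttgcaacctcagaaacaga
Alas2: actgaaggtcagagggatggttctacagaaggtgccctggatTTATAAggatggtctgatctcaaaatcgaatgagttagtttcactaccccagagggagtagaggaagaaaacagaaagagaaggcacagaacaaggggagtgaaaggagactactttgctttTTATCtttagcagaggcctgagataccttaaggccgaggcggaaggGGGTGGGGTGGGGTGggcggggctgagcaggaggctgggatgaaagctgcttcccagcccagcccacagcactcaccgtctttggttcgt

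In the 3 hemoglobin promoters shown, a TATAA lay 27 to 29 bases before the start on the strand of the gene, with a CCAAT and at least 1 CACCC further upstream. In Hba-a1 the CCAAT was at position -88 and the CACCC at -60 and -167, counted from the start. In Hbb-bs the CCAAT was at -76 and the CACCC at -90, and in Hbb-bt the CCAAT on the strand of the gene was at -75, with others on the other strand at -80 and -36, and CACCC at -89, -104 and -140. Alas2 differed in its layout, with 3 CACCC on the other strand at -30, -35 and -40 and its TATAA, which overlaps itself on both strands, at -207. Of the 9 genes, 7 had a promoter in the table. CACCC was found in 7 of the 7 against 57.5% of 32851 promoters of the same length, and CCAAT in 5 (the hemoglobin genes and Klf1) against 37.4%. GATAA was found in 6, all but Gata1, against 25.4%, and TATAA in 5 (the hemoglobin genes and Alas2) against 24.9%. These are matches of letters that are common in promoters, and they describe the windows only.

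The members of each hemoglobin pair are near copies, which sets what a read near the 3′ end can tell apart. The 297 promoter bases that the windows of Hba-a1 and Hba-a2 share were identical, and so were the 74 aligned bases after their stop codons. Their coding sequences differed at 1 of 429 bases. Counts at the 3′ end therefore cannot be assigned with certainty to Hba-a1 or to Hba-a2, and their sum is the firmer value. Hbb-bs and Hbb-bt also differed at only 1 of 444 coding bases, but at 38 of 131 aligned bases after the stop codon (71.0% identity), so their 3′ ends are distinct. Their promoters were 72.8% identical.

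All 4 hemoglobin genes were higher in every library labelled Alox15-/- than in any library labelled WT. Together they took 4507, 12129, 18347 and 6274 counts in Alox15-/- replicates 1 to 4 and 207, 383, 751 and 577 counts in WT replicates 1 to 4. As a share of all counts this was 0.110%, 0.326%, 0.334% and 0.0902% in the libraries labelled Alox15-/-. It was 0.00318%, 0.00606%, 0.00787% and 0.0120% in those labelled WT. One count in 300 was thus a hemoglobin count in Alox15-/- 3, and 1 in 31483 in WT 1. On average the share was 0.215% ± 0.133 (SD, n = 4) for Alox15-/- and 0.00728% ± 0.00369 (SD, n = 4) for WT, a ratio of 29.5. The lowest library labelled Alox15-/- was 7.52 times the highest WT library. Within a group the libraries also differed, by 3.70 times between the highest and the lowest in those labelled Alox15-/- and by 3.78 times in WT. The 95% Wilson intervals, which cover counting error only, were narrow beside these differences, running from 0.0880% to 0.0925% in Alox15-/- 4 and from 0.00277% to 0.00364% in WT 1.

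Hba-a1, which encodes an alpha chain, was at 232, 723, 759 and 210.5 CPM in Alox15-/- replicates 1 to 4 and at 8.62, 13.8, 18.7 and 26.0 CPM in WT replicates 1 to 4. Replicates 2 and 3 were the high pair among the libraries labelled Alox15-/-, and the groups did not overlap. Its mean CPM was 481 ± 301 (SD, n = 4) in the former and 16.8 ± 7.41 (SD, n = 4) in WT, and the fitted log2 fold change was 4.85 (SE 0.442). Hba-a2, the other alpha gene, was at 224, 659.8, 689 and 195.8 CPM against 6.74, 10.6, 13.2 and 25.8 CPM. It showed the same order of libraries as Hba-a1, and its log2 fold change was 5.01 (SE 0.458).

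Hbb-bs, the first of the beta genes, was at 506 CPM in Alox15-/- 1, 1523 CPM in Alox15-/- 2, 1634 CPM in Alox15-/- 3 and 402 CPM in Alox15-/- 4. In WT replicates 1 to 4 it was at 14.1, 29.5, 34.3 and 57.9 CPM. Again replicates 2 and 3 labelled Alox15-/- were high and the groups were apart. Its mean CPM was 1016 ± 652 (SD, n = 4) in the former and 33.9 ± 18.2 (SD, n = 4) in WT, with a log2 fold change of 4.92 (SE 0.481). Hbb-bt, the second beta gene, was at 125, 386, 387 and 93.9 CPM against 2.98, 7.53, 9.58 and 11.3 CPM. Its 3′ end differs from that of Hbb-bs, and it followed the same libraries, with a log2 fold change of 4.98 (SE 0.476). The coefficient of variation of the 4 genes among the libraries labelled Alox15-/- was between 60.7% and 64.7%.

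Alas2 was higher in the libraries labelled Alox15-/- too, at a much smaller number of counts. It had 15, 59, 74 and 19 counts in Alox15-/- replicates 1 to 4 and 0, 3, 11 and 4 counts in WT replicates 1 to 4. This was 3.62, 16.0, 14.0 and 2.73 CPM against 0, 0.481, 1.11 and 0.840 CPM, again with replicates 2 and 3 high and no overlap of the groups. The log2 fold change was 3.74 (SE 0.661), and it rests on a gene that reached the limit of 2 CPM in 4 libraries only, all of them labelled Alox15-/-.

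Slc4a1 had 12, 26, 29 and 11 counts in the libraries labelled Alox15-/- and 6, 1, 7 and 2 counts in those labelled WT. Its level was 2.90, 7.06, 5.48 and 1.58 CPM against 0.941, 0.160, 0.706 and 0.420 CPM. The groups did not overlap, and the pair of high libraries was the same as for the hemoglobin genes. Slc4a1 reached 2 CPM in 3 libraries and was not tested.

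The levels of the transcription factor genes overlapped between the groups. Klf1, the factor named for erythroid cells, had 0, 6, 3 and 0 counts in the libraries labelled Alox15-/- and 5, 0, 6 and 3 counts in those labelled WT, 9 in all against 14. Among the libraries labelled Alox15-/-, the counts fell in replicates 2 and 3, the pair with most hemoglobin. Klf1 reached 2 CPM in 0 libraries, and at such counts no difference could be shown. Gata1 was at 6.03, 15.2, 8.89 and 10.9 CPM in the libraries labelled Alox15-/- and at 5.33, 5.29, 15.4 and 4.62 CPM in those labelled WT. The highest library of all was WT 3 and the groups overlapped. Its mean CPM was 10.3 ± 3.85 (SD, n = 4) under the Alox15-/- label and 7.67 ± 5.19 (SD, n = 4) under the WT label, and the fitted log2 fold change was 0.34 (SE 0.364). Without WT 3 the log2 fold change was 1.002.

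**Figure D1:**
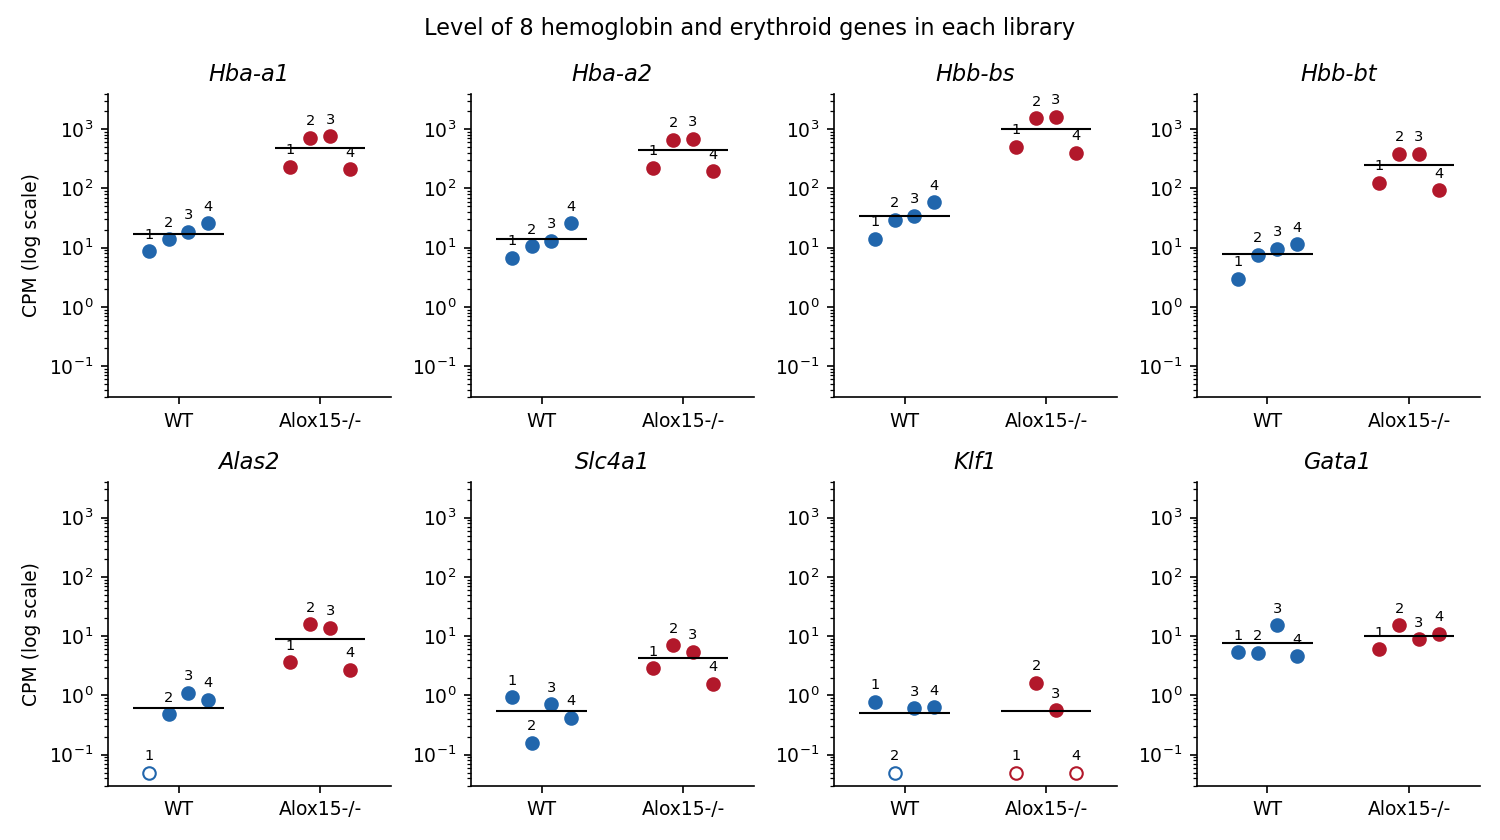
Level of each of the 8 genes with a row in each library, in CPM on a log axis, with WT in blue, Alox15-/- in red, the replicate number above each point and the group mean as a line; open circles mark 0 counts. The hemoglobin genes, Alas2 and Slc4a1 are higher in each library labelled Alox15-/-, replicates 2 and 3 being highest, whereas Klf1 and Gata1 overlap between the groups.

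A gene was tested where it reached 2 CPM in at least 4 libraries, and called where its adjusted p was under 0.05. Of the 9 genes, 6 were tested, and 5 of these (the hemoglobin genes and Alas2) were called higher, where 1.05% of the 12700 genes tested were. Likewise 5 of the 6 had every library labelled Alox15-/- above every WT library, where 2.74% of the genes tested did. The genes were chosen for this difference, so nothing is read from either count, and Alas2 passed the filter only through the group in which it is high. The median log2 fold change of all genes tested was -0.0075.

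How the hemoglobin counts are divided among the genes within a library does not use the level that chose them, and could be tested. The alpha genes took 41.9%, 42.0%, 41.7% and 45.0% of the hemoglobin counts in Alox15-/- replicates 1 to 4 and 47.3%, 39.7%, 42.1% and 42.8% in WT replicates 1 to 4. The averages of 42.7% ± 1.56 (SD, n = 4) and 43.0% ± 3.20 (SD, n = 4) differed by -0.306 percentage points, which was smaller than the spread between libraries. The two-sided exact permutation test gave p = 0.743, which stayed 0.743 when adjusted by Benjamini-Hochberg over 3 shares. Its direction turned when Alox15-/- 3 was left out (0.00559) or WT 1 was (1.15). WT 1 rests on 207 hemoglobin counts, which allow a share from 40.7% to 54.1% (95% Wilson interval).

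Among the beta counts, Hbb-bs took 80.2%, 79.8%, 80.8% and 81.1% in Alox15-/- replicates 1 to 4, and 82.6%, 79.7%, 78.2% and 83.6% in WT replicates 1 to 4. The averages of 80.5% ± 0.600 (SD, n = 4) and 81.0% ± 2.54 (SD, n = 4) differed by less than the spread between libraries (exact permutation test, p = 0.743, adjusted p = 0.743). The difference of -0.542 points became 0.335 points without WT 4. Thus the hemoglobin share of a library differed by at least 7.52 times between the groups, while no difference in the split between alpha and beta or between the beta genes was detectable with 4 libraries of each. A p that misses the threshold does not show that the shares are equal.

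Among the alpha counts, Hba-a1 took 50.8% to 52.4% in the libraries labelled Alox15-/- and 50.2% to 58.5% in those labelled WT. The means were 51.8% ± 0.712 (SD, n = 4) and 55.4% ± 3.60 (SD, n = 4), a difference of -3.52 points (exact permutation test, p = 0.143, adjusted p = 0.429). This share divides reads between copies that are identical after the stop codon. The smallest p that 4 libraries against 4 can give is 0.0286. All 3 are shares of counts that were not scaled for the length of the genes.

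**Figure D2:**
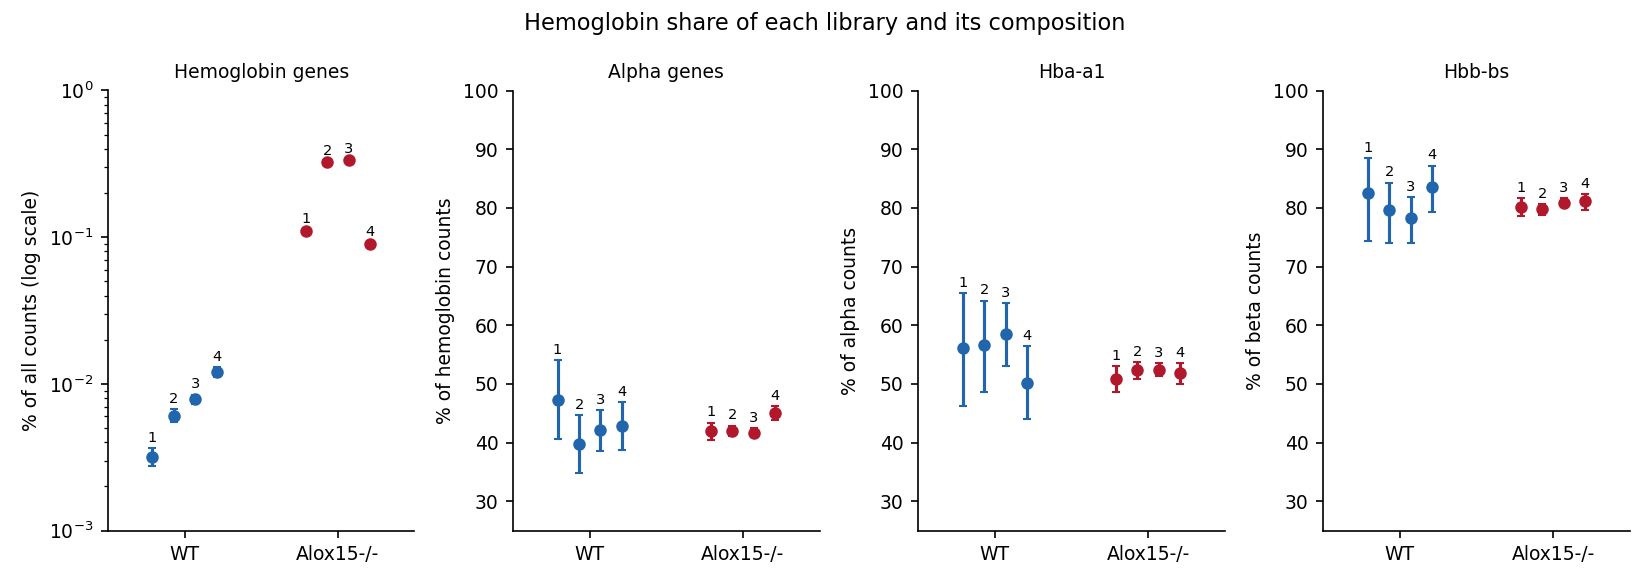
Hemoglobin counts as a percent of all counts (log axis) and, on linear axes from 25% to 100%, the alpha share of hemoglobin counts, the Hba-a1 share of alpha counts and the Hbb-bs share of beta counts in each library (WT blue, Alox15-/- red), with 95% Wilson intervals. The total is between 0.0902% and 0.334% in the libraries labelled Alox15-/- and at most 0.0120% in WT, while the shares overlap between the groups.

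Set against the hemoglobin counts of the same library, Gata1 was lower in every library labelled Alox15-/-, while the values of Alas2, Slc4a1 and Klf1 were lower over the pooled counts and rested on few counts in single WT libraries. Per 10000 hemoglobin counts there were 33.3, 48.6, 40.3 and 30.3 Alas2 counts in Alox15-/- replicates 1 to 4. In WT replicates 1 to 4 there were 0, 78.3, 146 and 69.3, which rest on 0, 3, 11 and 4 Alas2 counts. The 95% exact Poisson interval of WT 3 (73.1 to 262) lay above the values of all libraries labelled Alox15-/-, whereas those of WT 1 (0 to 178), WT 2 (16.2 to 229) and WT 4 (18.9 to 177) took in their range. Pooled over libraries, Alas2 was at 40.5 (34.6 to 47.1) against 93.8 in WT (55.6 to 148), or 60.0 in WT without WT 3. For Slc4a1 there were 26.6, 21.4, 15.8 and 17.5 against 290, 26.1, 93.2 and 34.7. WT 1 (106 to 631) and WT 3 (37.5 to 192) lay above the libraries labelled Alox15-/-, while the intervals of WT 2 (0.661 to 145) and WT 4 (4.2 to 125) took in their values. The pooled values were 18.9 (14.9 to 23.6) against 83.4 (47.7 to 135).

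For Klf1 there were 0, 4.95, 1.64 and 0 counts per 10000 hemoglobin counts in the libraries labelled Alox15-/- and 242, 0, 79.9 and 52.0 in those labelled WT. The intervals of WT 1 (78.4 to 564), WT 3 (29.3 to 174) and WT 4 (10.7 to 152) lay above all values of the libraries labelled Alox15-/-, and WT 2 had 0 counts, which allows up to 96.3. Pooled, Klf1 was at 2.18 (0.997 to 4.14) against 73.0 (39.9 to 122). Gata1 was the only one of these 4 genes whose values in single libraries did not overlap, at 55.5, 46.2, 25.6 and 121 in Alox15-/- replicates 1 to 4 and 1640, 862, 2040 and 381 in WT replicates 1 to 4. Its CPM overlapped between the groups. Pooled, Gata1 was at 49.4 (42.9 to 56.7) against 1260 (1110 to 1430), or 763 in WT without WT 3. The intervals cover counting error only, and the hemoglobin counts that chose the genes stand in the denominator, so these proportions were not tested.

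Genes that work beside hemoglobin were examined in 6 lists of 74 genes, 66 of which had a row and 38 of which were tested. Among these, 18 had a positive and 20 a negative log2 fold change (median -0.0141), and 0 were called by edgeR, where 158 of 12700 genes were called in either direction. An unadjusted p under 0.05 was reached by 2 of the 38 in edgeR and by 1 in DESeq2, which also called 0. The smallest adjusted p was 0.205 (edgeR quasi-likelihood test). The lists were written with earlier results of these data known.

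The heme pathway outside Alas2 was expressed in all libraries without a call. All 12 genes from Alas1 to Fech and the mitochondrial carriers were tested, 9 with positive and 3 with negative values around a median of 0.086 on the log2 scale. The highest value was 0.31 (SE 0.174) for Slc25a37, which brings iron into mitochondria. Alas1, the form of Alas2 used by other cells, averaged 26.3 ± 6.53 CPM (SD, n = 4) under the Alox15-/- label and 27.0 ± 1.5 CPM (SD, n = 4) under the WT label, and its log2 fold change was -0.03 (SE 0.159). Alas1 did not pass the test (adjusted p = 0.98, edgeR), and whether it differed from Alas2 in its change was not tested.

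Of 19 genes of the red cell membrane and its skeleton, 5 were tested, 2 with positive and 3 with negative values. They ran from -0.62 for Tmod1, which caps actin filaments, to 0.67 (SE 0.313) for Xk, a membrane protein bound to the Kell antigen. Xk was at 2.66, 4.07, 3.59 and 2.30 CPM against 1.57, 2.40, 1.61 and 2.31 CPM, and it did not pass the test (edgeR adjusted p = 0.635). Of 10 erythroid transcription factors and their partners, 5 were tested and all 5 had a negative value, from -0.21 for E2f2 to -0.10 for Ldb1, a bridging partner of Gata1. None of the 5 was called.

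Of 14 receptors, enzymes and maturation factors of erythroid cells, 12 were tested, 4 with positive and 8 with negative values. Car2, a carbonic anhydrase, had the lowest value at -0.34 (SE 0.332). Blvrb, which reduces biliverdin and flavins and is abundant in red cells, had the highest at 0.85 (SE 0.252, edgeR adjusted p = 0.205). Its level was 6.28, 9.50, 9.27 and 5.32 CPM in Alox15-/- replicates 1 to 4 and 3.45, 4.00, 4.64 and 4.41 CPM in WT replicates 1 to 4. Blvrb was thus highest in the libraries with most hemoglobin, with no overlap of the groups, and did not pass the threshold. Of 11 genes of heme clearance and iron storage, 4 were tested, from -0.12 for Slc48a1, a heme transporter, to 0.35 (SE 0.239) for Hmox1, the inducible heme oxygenase. The last list, 8 other globin symbols including the embryonic forms, was not analysed here.

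**Figure D3:**
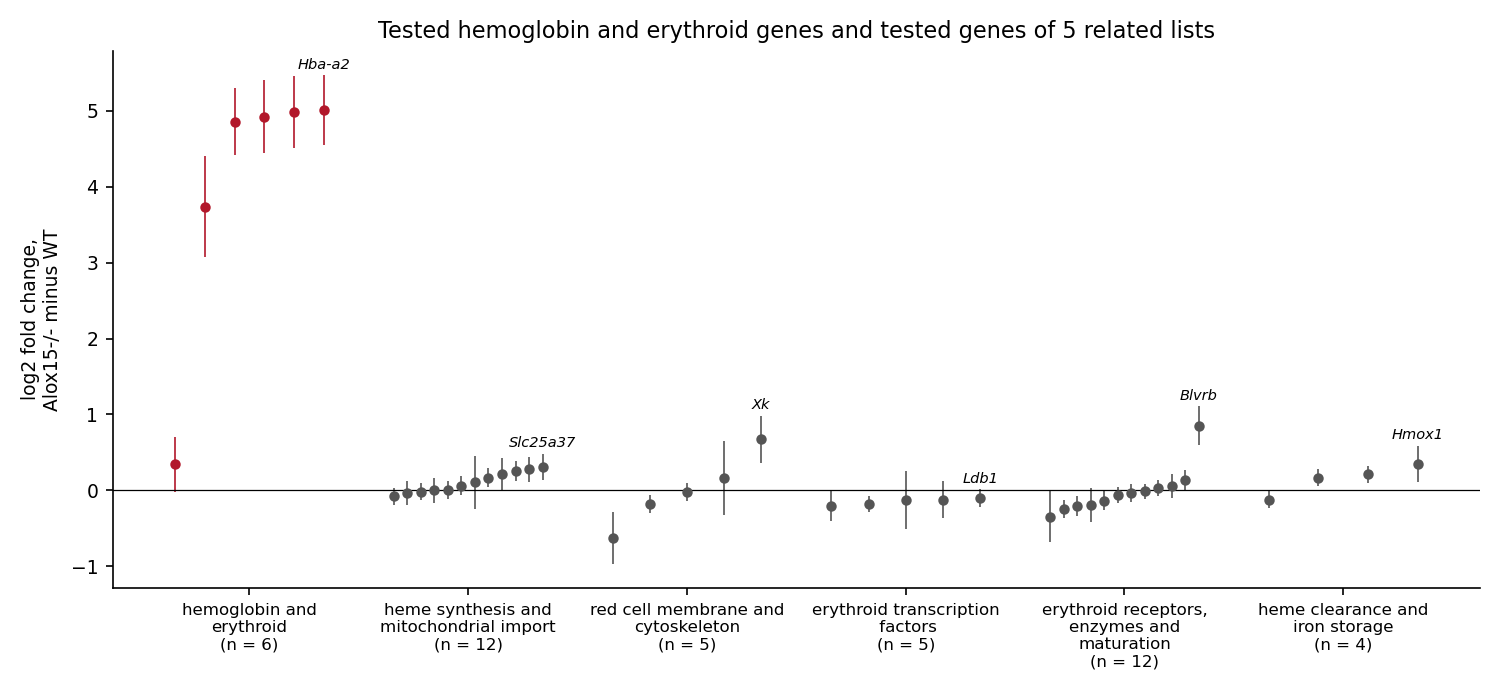
Log2 fold change (Alox15-/- minus WT, positive where higher in Alox15-/-) with its standard error for the 6 tested hemoglobin and erythroid genes in red and for the 38 tested genes of 5 related lists in grey, each list in order of value and its highest gene named. The red points reach 5.01, and the grey points run from -0.62 to 0.85.

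Another 28 genes of these lists had a row but lay below the filter, among them most of the membrane genes. Of the 28, 21 had at least 10 counts over the 8 libraries. Of the 21, 10 had every library labelled Alox15-/- above every WT library, 0 had every one below, and 11 overlapped. Among all 6370 genes below the filter with as many counts, 3.55% had every library labelled Alox15-/- above. This is a count beside its background, and the lists were written with results known.

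Among these low genes Trim10, needed late in erythroid maturation, had 3, 2, 9 and 3 counts in the libraries labelled Alox15-/- against 0 in each library labelled WT. Nfe2, a factor of erythroid cells and megakaryocytes, had 4, 21, 18 and 7 counts against 2, 6, 8 and 1, with replicates 2 and 3 labelled Alox15-/- high as for the hemoglobin genes. Hp encodes haptoglobin, which binds free hemoglobin and is also stored by neutrophils, and had 6, 36, 15 and 6 counts against 1, 2, 2 and 2. Gfi1b, a repressor of erythroid cells and megakaryocytes, had 2, 5, 1 and 2 counts against 0 in each WT library. Kel, Ermap, Tspo2 and Slc11a1 were also among the 10, the last a metal transporter of macrophages and neutrophils. These genes were singled out after their values were seen. Epor, the receptor for erythropoietin that red cell precursors need, had 0, 0, 1 and 1 counts against 2, 0, 4 and 0. At such counts neither its presence nor a difference could be shown.

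Markers of other cells moved with the hemoglobin genes, and their part in the result was not tested. Summed over the list, mast cell and basophil markers were at 146 to 378 CPM in the libraries labelled Alox15-/- and at 59.6 to 84.4 CPM in WT, and 8 of 9 tested genes were called higher, beside 1.05% of all genes tested. Of these 8, 4 were under 2 CPM in every WT library and so passed the filter only through the libraries labelled Alox15-/-. Eosinophil markers were at 21.7 to 78.4 CPM against 1.25 to 10.4 CPM, with 2 of 2 tested genes called (Prg2 and Epx). Below the filter, Prg3, Ear1 and Ear6 were higher in each library labelled Alox15-/- than in any WT library. The receptor genes of the list did not separate the groups. Il5ra and Siglecf each had 4 counts in all against 1, and Ccr3 had 2 against 42, with 39 of these in WT 2. Neutrophil markers were at 14.4 to 301 CPM against 4.55 to 7.97 CPM, with 3 of 4 called, 2 of which were under 2 CPM in every WT library. The neutrophil sum was highest in Alox15-/- 2 (301 CPM) and Alox15-/- 3 (169 CPM) and lowest of its group in Alox15-/- 4 (14.4 CPM), the order of the hemoglobin genes apart from the first place. Of its defining genes, Ly6g had 1 count in all 8 libraries.

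Megakaryocyte and platelet markers were at 3.86 to 18.7 CPM against 1.88 to 2.42 CPM, and 0 of 1 tested was called (Itga2b, log2 fold change 1.78, edgeR adjusted p = 0.056). Pf4, their most specific gene, had 2, 24, 14 and 3 counts against 0, 0, 0 and 2. The libraries with most hemoglobin were thus also those with most Pf4. Macrophage markers were at 31.2 to 86.3 CPM against 12.7 to 23.7 CPM (1 of 2 called). The called gene was Lyz2, which neutrophils and other myeloid cells also express, and without it the sums overlapped, at 14.0 to 22.0 CPM against 11.2 to 20.5 CPM. C1qb, which marks macrophages of tissues, was at 0 in every WT library with 0, 1, 2 and 0 counts in the others. NK cell markers were at 38.8 to 81.7 CPM against 24.0 to 39.0 CPM, so the sums overlapped. Of these markers 2 of 3 were called higher, beside 1.05% of all genes tested. Those called were Tyrobp and Klrd1, and Nkg7 was not (edgeR adjusted p = 0.375). Below the filter, Klrb1c and Klre1 overlapped between the groups, and Ncr1 had 6 counts in all against 10. B cell markers overlapped, at 212 to 310 CPM against 208 to 301 CPM, with 0 called higher and 1 of 3 called lower, beside 0.197% of all genes tested. The sums of T cell and Treg markers overlapped between the groups, and 0 of 7 and 0 of 4 were called. Of the 7 T cell markers, Cd3g was higher in each library labelled Alox15-/- than in any WT library (152 to 170 against 111 to 140 CPM, edgeR adjusted p = 0.296) and Cd4 lower (210 to 297 against 328 to 352 CPM, edgeR adjusted p = 0.357).

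**Figure D4:**
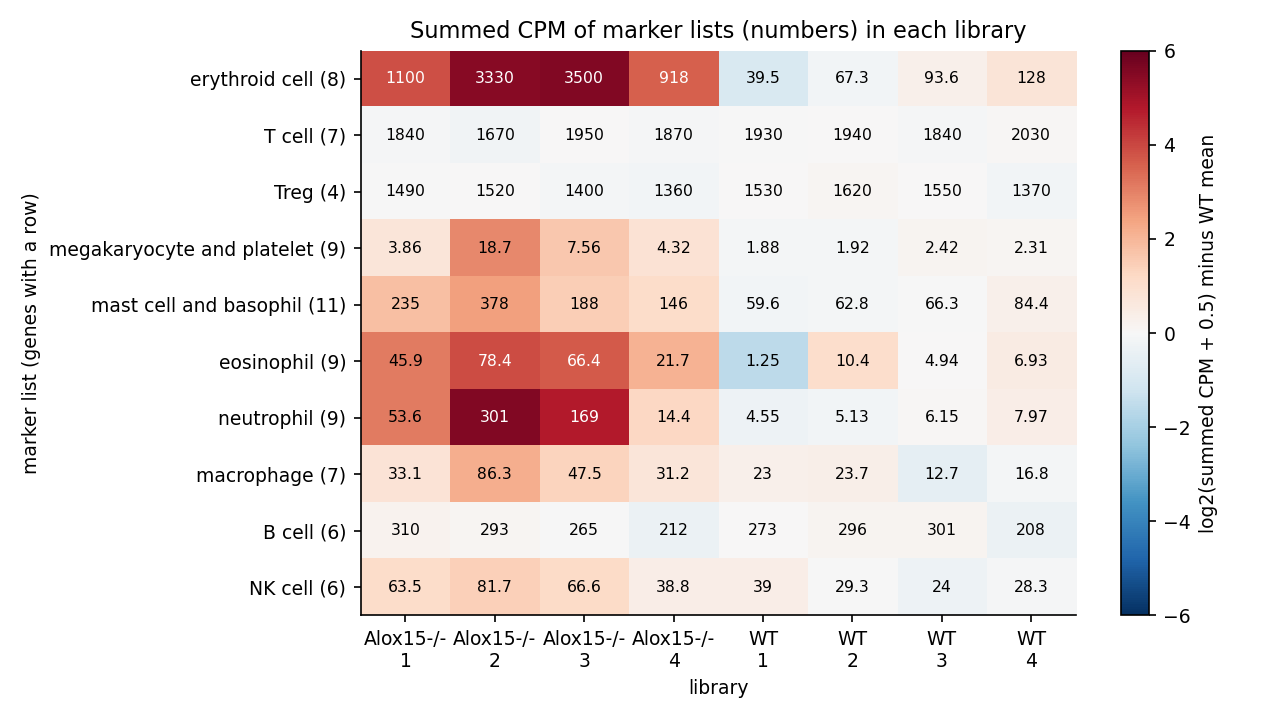
Summed CPM of 10 lists of marker genes (printed in each cell, with the number of genes with a row in parentheses) in each library, coloured by log2(summed CPM + 0.5) minus its mean over the WT libraries. Erythroid, mast cell and basophil, eosinophil and neutrophil sums are higher in all 4 libraries labelled Alox15-/-, whereas T cell sums stay between 1670 and 2030 CPM in all 8.

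Outside the 4 hemoglobin genes, the tested genes whose profile over the 8 libraries was most like the hemoglobin sum were not erythroid genes. Slc4a1, Klf1 and the other genes below the filter were not ranked. Likeness was measured as the root mean square difference of log2(CPM + 0.5), each gene centred on its mean, over 12696 tested genes. Both profiles share the libraries and the gap between the groups, so a small difference is a description only. The nearest was Ctsg (0.580), which encodes cathepsin G of neutrophils and mast cells, followed by Gm8420 (0.671), Gm14094 (0.680), Mcpt2 (0.725), a mast cell protease, Prg2 (0.782), an eosinophil granule protein, and Cd63-ps (0.784). Alox15 itself was 9th, at 0.862, and Alas2 was 16th, at 0.990. Gata1 was further off, at 2.31 in place 490 of the 12696.

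Within the libraries labelled Alox15-/- these genes did not all follow the hemoglobin sum, which was at 1088, 3292, 3470 and 902.6 CPM in replicates 1 to 4. Ctsg was at 22.7, 47.0, 28.4 and 10.5 CPM and Prg2 at 28.7, 46.7, 40.3 and 13.7 CPM, with replicates 2 and 3 above 1 and 4 as for the hemoglobin genes. Mcpt2 (93.9, 194, 84.9 and 56.4 CPM) and Cd63-ps (17.9, 35.8, 17.8 and 5.32 CPM) were high in replicate 2 alone. Gm8420 was at 207, 208, 210 and 217 CPM, nearly level, as was Alox15 at 70.5, 69.2, 63.7 and 65.3 CPM (coefficient of variation 4.74%). Gm14094 was also nearly level, at 66.9, 64.9, 71.1 and 72.1 CPM. Within WT, Alox15 and the hemoglobin sum were both lowest in replicate 1, at 1.88 and 32.5 CPM, and both highest in replicate 4, at 9.02 and 121 CPM.

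**Figure D5:**
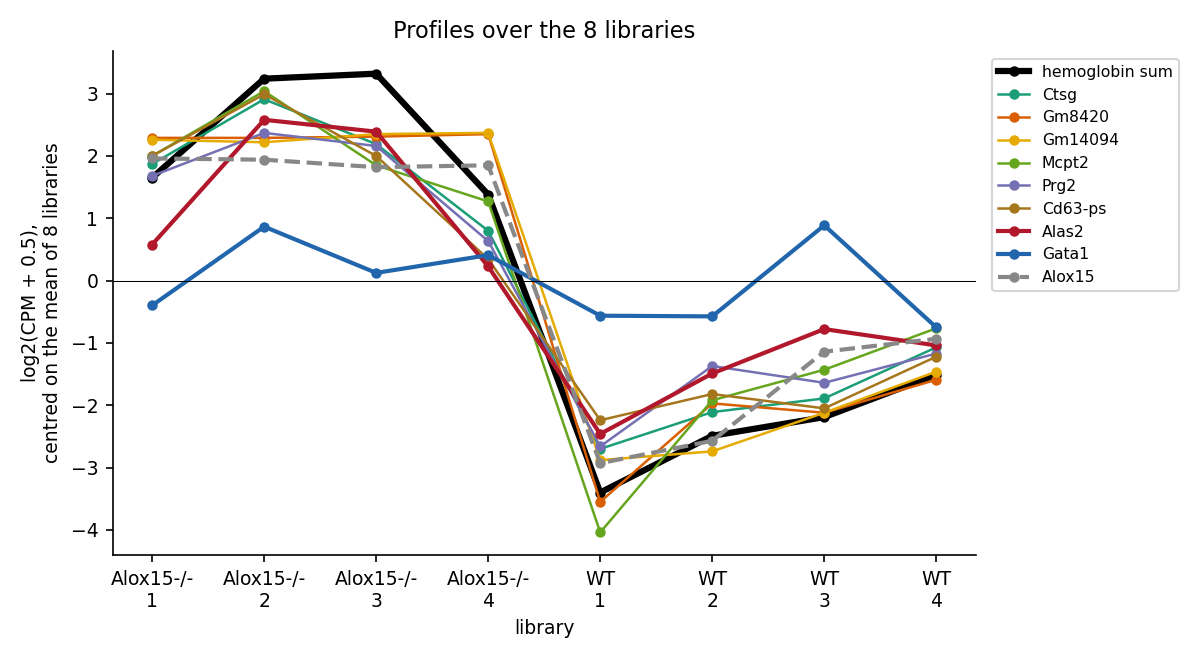
Profiles of the hemoglobin sum (black), its 6 nearest genes, Alas2, Gata1 and Alox15 over the 8 libraries, as log2(CPM + 0.5) centred on the mean of each gene. Ctsg, Mcpt2, Prg2, Cd63-ps and Alas2 peak in replicate 2 of the libraries labelled Alox15-/-, Gm8420, Gm14094 and Alox15 are nearly level there, and Gata1 shows no gap between the groups.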

How the data were processed

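RNA of 4 libraries labelled Alox15-/- and 4 labelled WT was analysed from the raw counts per gene symbol that the authors deposited, which are not normalized. The submitters' processing notes name Bowtie, edgeR and the build GRCm38, with no version for the tools, while the counting tool and the treatment of duplicate reads are not given in the sources used here. The kit is a MACE-Seq Kit by the methods and a small RNA kit of the same company by the labels. Groups and replicate numbers came from the sample titles, and the labels say that each library is a separate mouse.

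Genes that reached 2 CPM in 4 or more libraries (12700 of 28239) were fitted with edgeR 4.0.16 in R 4.3.3 (TMM scaling, glmQLFit and glmQLFTest, group as the only term), with Benjamini-Hochberg adjustment over all genes tested and a threshold of 0.05. The biological coefficient of variation was 14.5%. Shares were compared by two-sided exact permutation tests over libraries in scipy 1.17.1. Gene positions were those of GENCODE on GRCm38, and promoters those of RefSeq on GRCm38.p6. Copies were aligned with Biopython 1.88. Tables were handled with pandas 2.3.3 and plotted with matplotlib 3.10.9.

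The members and the gene lists were chosen with earlier results of these data known. The text names all members, called genes and the highest and lowest of each related list (some genes are not reported here), the 6 genes most like the hemoglobin sum, and Alox15; low genes, marker genes and genes named beside them were added after their values were seen. The alternatives were DESeq2 1.42.0 or its size factors, totals without hemoglobin, no filter or filterByExpr, the replicate number as a block, other totals or log ratios for shares, and each library left out. Leaving Lyz2 out of the macrophage markers, and WT libraries out of the pooled proportions, was chosen after seeing the data. The fit was tested on simulated data.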

Additional observations from a re-analysis of the deposited data

Results flagged for a closer look

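Of 24 groups of 4 libraries examined, 2 held a library set apart from the other 3, and chance sets apart about 1 in 20 such groups. Gata1 was at 15.4 CPM in WT 3, while the other WT libraries were between 4.62 and 5.33 CPM. WT 3 also had the highest total count (9538962) and the highest level of Foxp3 (195 CPM, the other WT libraries being between 93.4 and 109 CPM). The alpha share of the hemoglobin counts was 45.0% in Alox15-/- 4, while the other libraries of that group were between 41.7% and 42.0%. Alox15-/- 4 had the lowest hemoglobin percent of its group (0.0902%).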

How the results depend on the processing

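The number of genes called was 158, and between 149 and 194 with DESeq2, its size factors, totals without hemoglobin or filterByExpr. Without a filter 388 genes were called (298 higher and 90 lower, so that 76.8% were higher in place of 84.2%), and with each library left out between 86 and 172. The count fell by more than 1.5 times without Alox15-/- replicate 1 (95), 2 (86) or 3 (93) and without WT replicate 2 (105). Without a filter 6 of 66 genes of the related lists were called, all higher (among them Gfi1b, Hp, Nfe2, Tal1 and Trim10), and 0 in the other alternatives. The cause was not tested.

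The log2 fold changes of the hemoglobin genes lay between 4.55 and 5.41 over the settings, a description of genes chosen for this difference. Alas2 had no value in the 4 fits that left out a library labelled Alox15-/-, since it then missed the filter. Gata1 lay between 0.129 and 1.002. The alpha share differed by -1.40 to 1.15 points with each library left out, turning at 0.00559 and 1.15, the Hbb-bs share by -1.49 to 0.335, turning at 0.335, and the Hba-a1 share by -5.24 to -2.46.

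Same-numbered libraries deviated with r of 0.068, 0.169, -0.184 and -0.017, and differently numbered ones with r between -0.220 and 0.152. These values cannot show whether same-numbered cultures were handled together. With the replicate number as a block 146 genes were called (126 higher), 0 of them in the related lists. The exact permutation p was then 0.875 for the alpha share, 0.25 for the Hba-a1 share and 1.0 for the Hbb-bs share. Depth limits Klf1, Slc4a1 and the low genes, whose counts of 0 to 36 per library allow a description only.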
